A study of Homo sapiens with 6 samples.

Results

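Messages of the heat-shock chaperones of the cytosol and the mitochondria were compared between SH-SY5Y cells that carried a hairpin against TDP-43 and cells that carried a control hairpin. The members were chosen by symbol. They comprised the HSP70 family (HSPA genes and HSPH1), both cytosolic HSP90 genes, the mitochondrial chaperonin genes HSPD1 and HSPE1, the small heat shock proteins (HSPB), the J-domain proteins (DNAJA, DNAJB and DNAJC) and the BAG family. The pattern matched 77 symbols, and 5 chaperones of the endoplasmic reticulum (HSPA5, DNAJB9, DNAJB11, DNAJC3 and DNAJC10) were set aside. This left 72 of the 26372 genes in the table. The label of the set holds only in part. Among others, the symbols also keep HSPA13, DNAJB12, DNAJB14 and DNAJC1, whose proteins reside at the endoplasmic reticulum, and HSPB11, a subunit of ciliary transport. The location of every other member was not checked.

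HSP70 proteins bind and release unfolded stretches of other proteins in a cycle driven by ATP. J-domain proteins bring clients to HSP70 and trigger the hydrolysis of ATP, and nucleotide exchange factors, among them the BAG proteins and the HSP110 branch of the HSP70 family, reset the cycle. HSP90 acts on clients later in folding, small heat shock proteins hold unfolded proteins without ATP, and HSP60 with its lid HSP10 (HSPD1 and HSPE1) folds proteins in the mitochondrial matrix. Heat shock factor HSF1 raises many of these genes when unfolded proteins accumulate. In neurons, chaperones of several of these classes act on aggregation-prone proteins, of which TDP-43 is one.

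SH-SY5Y is an established human neuroblastoma line. Hairpins were delivered with a lentiviral shRNA vector: shNC (genotype control) carried the control hairpin and shTDP43 (TDP-43 knockdown) a hairpin against TDP-43, the RNA-binding protein encoded by TARDBP. The protocol states puromycin selection for the knockdown cells, a stable infected population. Each group had 3 libraries of poly(A) RNA, and each gene had an FPKM (fragments per kilobase, scaled to library size), so levels can be compared between genes. The labels name no second hairpin against TDP-43 and no rescue, so an effect of TDP-43 and other effects of the hairpin or of the infected population cannot be told apart. Separate cultures for the 3 libraries of a group are not stated, so p-values measure the spread between these libraries, which may be technical. In bulk RNA, fewer cells of a type and less RNA per cell cannot be told apart.

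Changes were tested on log2(FPKM + 1) with limma over the 13263 genes that averaged 1 FPKM or more, and a gene was called at a Benjamini-Hochberg adjusted p under 0.05. TARDBP had 56.1, 56.2 and 56.6 FPKM in shNC and 36.0, 33.1 and 34.8 FPKM in shTDP43. The groups did not overlap, and the shTDP43 mean was 61.5% of control (limma adjusted p = 2.84e-06; exact two-sided permutation p = 0.1, the smallest that 3 against 3 allows). Relative depth, read from the steps among low values, was 1.15 to 1.28 in shNC and 1 to 1.11 in shTDP43, and absolute depth is unknown. The libraries shNC replicate 1 and shTDP43 replicate 3 stood apart in the small nucleolar RNA SNORD3A (11540 and 8551 FPKM, against 137200 to 552700 FPKM in the other 4). Of the noradrenergic markers of such cells, 13 of 14 were tested, 6 rose and 5 fell, and the 14 summed to 2762 to 2776 FPKM in shNC and 2322 to 2383 FPKM in shTDP43. In these libraries HAND2 and DBH were above 160 FPKM throughout, while TH, the enzyme of catecholamine synthesis, was between 0 and 0.207 FPKM. Mesenchymal-type markers moved with the groups: 8 of 12 tested fell and 4 rose, and the 15 markers summed to 519 to 527 FPKM in shNC and 464 to 478 FPKM in shTDP43, with PRRX1 and YAP1 under 0.2 FPKM. Glial markers summed to 20.0 to 21.5 and 9.34 to 9.90 FPKM, with SOX10 under 0.4 FPKM in each library, and blood, endothelial and epithelial markers to 3.90 to 5.18 and 2.67 to 3.54 FPKM, with HBB at 0. In the last list KRT18 alone was called, at 17.0% of control, and CD68, EPCAM and KRT19 overlapped between groups at 116.9%, 104.9% and 127.9%. Of all tested genes, 18.5% were called higher and 19.6% lower. The part of these marker changes in the results on chaperones was not tested.

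The promoters of the members show where the heat-shock factors could be looked for. RefSeq (GRCh38.p14) gave 250 bases before the start of 63 of the 72 genes. A heat shock element is an array of GAA units in alternating orientation. Its 3-unit form, GAANNTTCNNGAA on either strand, was in 3 of the 63 windows (4.76%) and in 120 of 27305 promoters in all (0.439%). Over tested genes alone it was in 2 of 54 member windows (3.70%) and 36 of 9778 promoters (0.368%). The 2-unit forms GAANNTTC or TTCNNGAA, which read the same on both strands and lie within every 3-unit match, were in 14 of the 63 (22.2%) against 11.7% of all promoters, and over tested genes alone in 10 of 54 (18.5%) against 8.59%. A match is a description of the letters and not a bound site, and starts other than the one RefSeq lists were not searched. The stretches below are shown for the members with a 3-unit match and for 5 others whose values are described in detail, of which HSPB8, like HSPA6, was below the level tested, with the GAA units and the bases between them in capitals, 5′ to 3′ on the strand of the gene.
HSPA8, distal (chr11:123062342-123062378, minus strand): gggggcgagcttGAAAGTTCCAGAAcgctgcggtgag
HSPA8, proximal (chr11:123062167-123062203, minus strand): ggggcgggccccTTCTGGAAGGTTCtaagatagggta
DNAJA1 (chr9:33025063-33025094, plus strand): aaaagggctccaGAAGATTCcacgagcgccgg
HSPB1 (chr7:76302479-76302510, plus strand): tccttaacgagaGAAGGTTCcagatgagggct
HSPB8 (chr12:119178831-119178862, plus strand): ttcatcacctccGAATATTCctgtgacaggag
DNAJB6 (chr7:157336861-157336897, plus strand): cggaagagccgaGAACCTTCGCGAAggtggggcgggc
HSPA1A (chr6:31815425-31815456, plus strand): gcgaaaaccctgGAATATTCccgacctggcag
HSPA1B (chr6:31827621-31827652, plus strand): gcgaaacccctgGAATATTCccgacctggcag
HSPA6 (chr1:161524454-161524490, plus strand): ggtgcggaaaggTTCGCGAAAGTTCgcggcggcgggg
HSPA8 had 3-unit matches starting 230 and 55 bases before its start, DNAJB6 and HSPA6 had 1 each, and the others shown had a 2-unit match. The HSPA1A stretch also lies in the window of the divergent gene HSPA1L. In the windows of HSPA1A and HSPA1B, 235 of 249 aligned bases were identical (94.4%).

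Of the 72 members, 58 reached the level tested, 14 stayed below it and 3 of these (HSPA7, HSPB3 and DNAJB3) were listed at 0 in all 6 libraries. In shTDP43, 12 members rose and 9 fell, which is 36.2% of those tested, beside 38.1% of all tested genes. The rises were 20.7% of tested members beside 18.5% of all tested genes, and the falls 15.5% beside 19.6%. The share of members called was thus near that of all genes. The median log2 fold change was 0.01 over the members and 0.00 over all tested genes. Sizes over 0.5 in log2 were reached by 3 members (5.17%, beside 4.85% of all tested genes), namely HSPA4L, DNAJC11 and HSPB1. The groups did not overlap in 28 members (48.3%), beside 50.7% of all tested genes. Without shNC replicate 1 and shTDP43 replicate 3 together, 10 of 57 members were called higher (17.5%, beside 11.8% of all genes in the same test) and 4 lower (7.02%, beside 13.3%), in a test with fewer libraries.

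**Figure D1:**
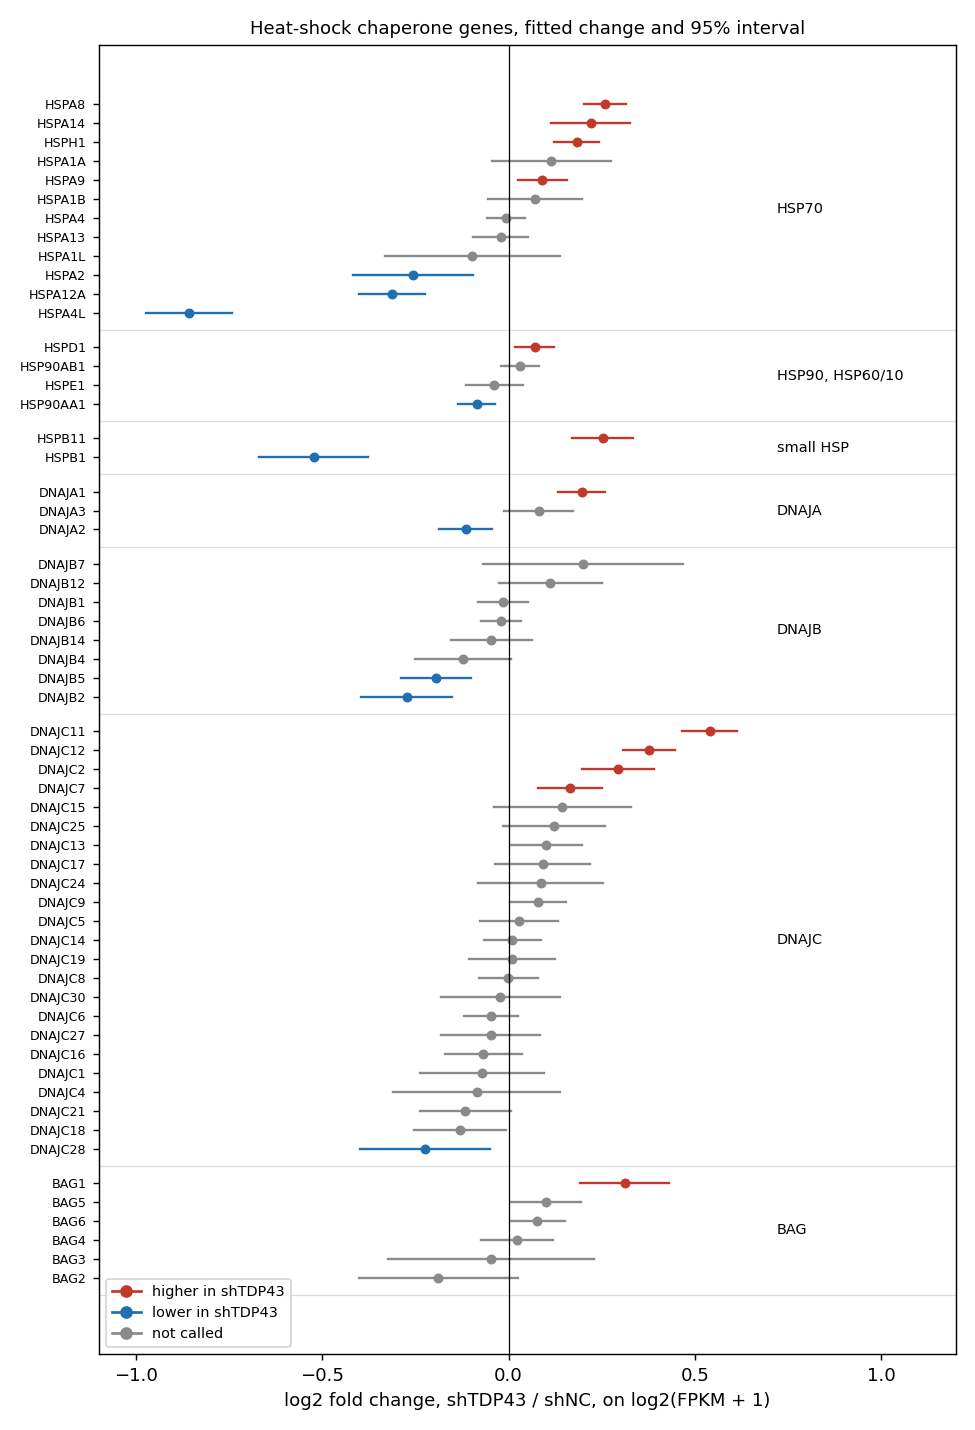
Fitted log2 fold change (x axis, shTDP43 against shNC on log2(FPKM + 1); points) with 95% interval (lines) for the 58 tested members, grouped by class on the y axis. HSPA4L lies farthest to the left at -0.86 and DNAJC11 farthest to the right at 0.54, and 37 members were not called.

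Within the HSP70 family 4 of 12 tested members rose (33.3%, beside 18.5% of all tested genes) and 3 fell (25.0%, beside 19.6%). HSPA8 (GRCh38 chromosome 11, 123057489 to 123062462), the constitutive cytosolic HSP70 also called HSC70, had 353, 344 and 335 FPKM in shNC and 414, 409 and 412 FPKM in shTDP43. Every shTDP43 library was above every shNC library. The mean rose from 344 ± 8.84 to 412 ± 3.01 FPKM (SD, n = 3), or 119.7% of control (limma adjusted p = 0.000131; log2 fold change 0.26, SE 0.02). The call was kept under each of the 15 alternatives run. HSPA8 was the most abundant HSP70 member, and RefSeq lists 20 pseudogenes named after it, whose share of its reads was not analysed here. The summed FPKM of the 15 HSP70 members was 629 to 649 in shNC and 709 to 715 in shTDP43. Without HSPA8 the sums were 294 to 297 and 297 to 301 FPKM, which is 101.3% of control.

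The stress-inducible HSP70 genes were low and were not called. HSPA1A had 5.82, 5.76 and 5.79 FPKM in shNC and 6.70, 6.82 and 5.60 FPKM in shTDP43 (log2 difference 0.12, 95% interval -0.04 to 0.27; limma adjusted p = 0.224). The shTDP43 libraries lay on both sides of the narrow shNC range. Without shTDP43 replicate 3, the lowest of them, the log2 fold change was 0.19 and HSPA1A was called higher (limma adjusted p = 0.0259). HSPA1B, an almost identical copy that lies 9795 bases away, had 8.46, 9.73 and 9.40 against 9.95, 9.37 and 9.78 FPKM (log2 difference 0.07, interval -0.05 to 0.20; limma adjusted p = 0.338). Reads of this pair cannot be assigned with certainty, so their sum is given as well: 14.3, 15.5 and 15.2 FPKM in shNC and 16.6, 16.2 and 15.4 FPKM in shTDP43, ranges that overlap. HSPA6, an HSP70 gene that is nearly silent without stress, was listed at 0 in 5 libraries and at 0.0188 FPKM in shNC replicate 2. HSPA1L, another HSP70 gene of the same cluster, had 1.00 to 1.24 and 0.792 to 1.16 FPKM and was not called.

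The HSP110 genes, which encode nucleotide exchange factors for HSP70, went different ways. HSPA4L (chr4:127781796-127840733) had 11.3, 11.1 and 12.2 FPKM in shNC and 6.22, 5.78 and 5.77 FPKM in shTDP43. This was the largest change of any tested member, to 51.3% of control (limma adjusted p = 9.77e-06; log2 fold change -0.86, SE 0.05). HSPH1 (chr13:31134973-31162388) had 40.7, 41.3 and 40.3 FPKM in shNC and 46.6, 47.3 and 45.4 FPKM in shTDP43, and rose to 113.8% of control (limma adjusted p = 0.00108). HSPA4, the third HSP110 gene and the most abundant, had 69.6 to 70.9 and 69.2 to 70.9 FPKM, and was not called (limma adjusted p = 0.813; log2 difference -0.01, interval -0.06 to 0.04). The calls of HSPA4L and HSPH1 were kept under each of the 15 alternatives. Whether the 3 genes differ from one another in their change was not tested.

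**Figure D2:**
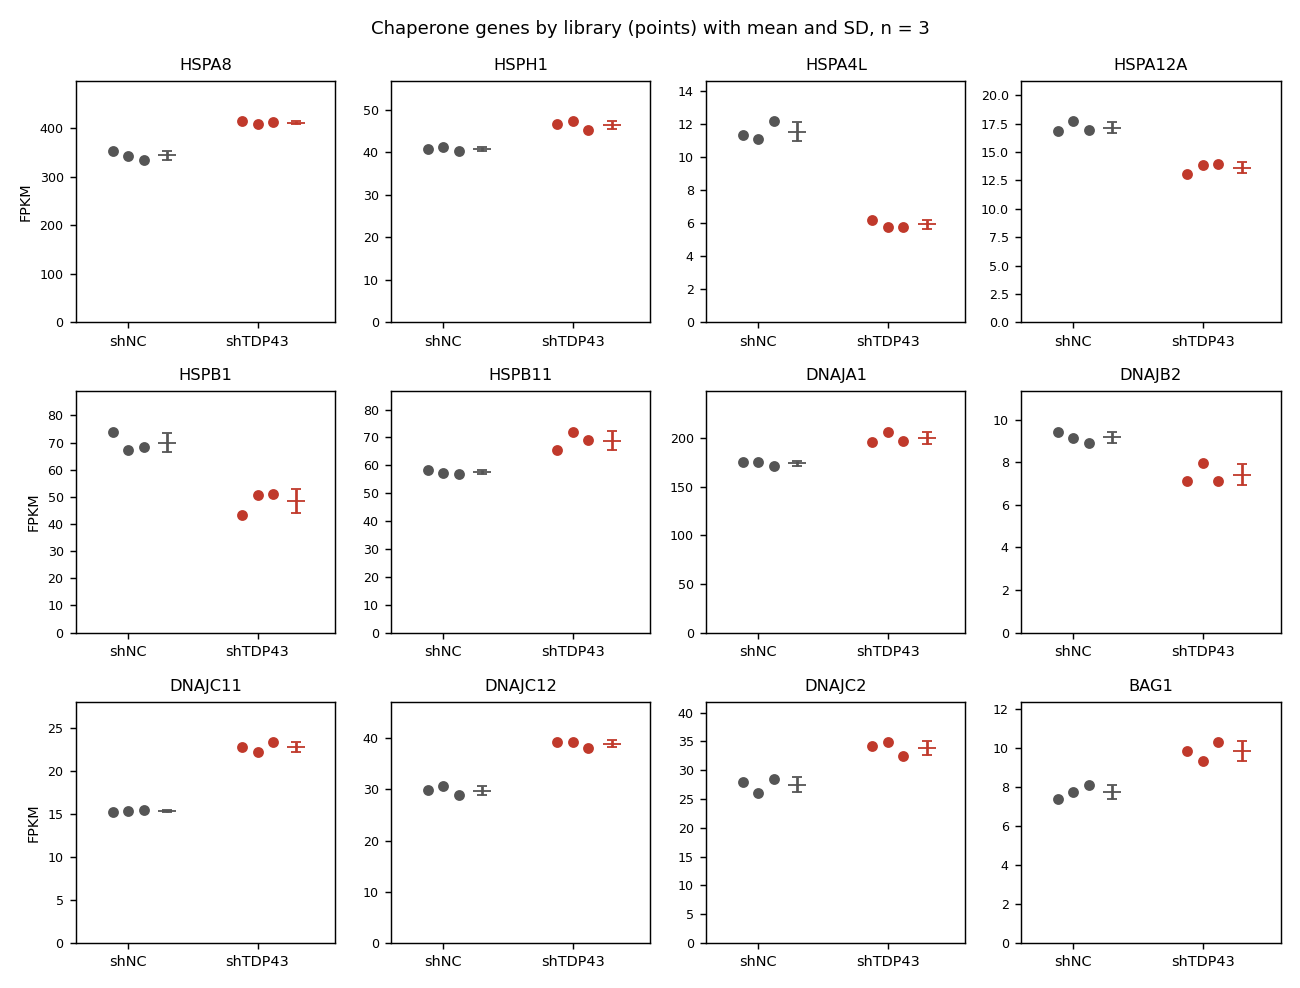
FPKM on the y axis (from 0) for 12 called members in each shNC and shTDP43 library (points), with the mean and SD of 3 libraries beside them. In every panel the points of the groups are apart, from 11.1 to 12.2 against 5.77 to 6.22 FPKM for HSPA4L to 15.3 to 15.5 against 22.2 to 23.4 FPKM for DNAJC11.

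HSPA12A and HSPA2 also fell. HSPA12A (chromosome 10, 116671192 to 116850747), a distant member of the family, had 16.8, 17.7 and 16.9 FPKM in shNC and 13.1, 13.9 and 13.9 FPKM in shTDP43, 79.3% of control (limma adjusted p = 0.000512). HSPA2, best known from male germ cells, had 6.33, 7.63 and 6.71 FPKM in shNC and 5.30, 5.56 and 5.92 FPKM in shTDP43, 81.2% of control (limma adjusted p = 0.0218). The groups did not overlap in either gene. The HSPA2 call was lost without shNC replicate 2 (limma adjusted p = 0.0623), without shTDP43 replicate 1 (0.065), without shTDP43 replicate 2 (0.0571) and with no filter on low values (0.0505). RefSeq places an antisense RNA over 60.9% of the HSPA2 span. The sources used here do not give strand use in the counting, and its reads and those of HSPA2 cannot be told apart.

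HSPA14 and DNAJC2, whose proteins form a pair at the ribosome that receives nascent chains, both rose. HSPA14 (chr10:14838306-14871741) had 18.5, 18.0 and 20.1 FPKM in shNC and 22.7, 21.2 and 22.4 FPKM in shTDP43, 117% of control (limma adjusted p = 0.00674). Its call was lost without both libraries low in SNORD3A (limma adjusted p = 0.0696). RefSeq places MSANTD7 over 26.0% and SUV39H2-DT over 22.2% of the HSPA14 span. Neither symbol has FPKM here, and their share of the HSPA14 reads was not analysed. DNAJC2 (chr7:103312289-103344767) had 28.0, 26.0 and 28.4 FPKM in shNC and 34.2, 34.9 and 32.4 FPKM in shTDP43, 123% of control (limma adjusted p = 0.00113), and kept its call under each of the 15 alternatives. Each shTDP43 library was above each shNC library in both genes. The pair was put together after its values were seen. RefSeq lets PMPCB, a mitochondrial protease gene, run across the whole DNAJC2 span; PMPCB itself had 29.9 to 31.0 and 30.1 to 30.7 FPKM and was not called.

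HSP90AB1 was the most abundant message of the set in every library, while HSPA8 was below HSP90AA1 in each shNC library and above it in each shTDP43 library. HSP90AB1, the constitutive cytosolic form, had 613, 606 and 600.0 FPKM in shNC and 625, 624 and 609 FPKM in shTDP43, ranges that overlap (log2 difference 0.03, interval -0.02 to 0.08; limma adjusted p = 0.318). HSP90AA1 (chromosome 14, 102080742 to 102139749), the more inducible form, had 394, 388 and 388 FPKM in shNC and 366, 374 and 362 FPKM in shTDP43. It fell to 94.2% of control without overlap of the groups, a log2 fold change of -0.09 (limma adjusted p = 0.0158). The pair depended on scaling: with quantile normalization HSP90AA1 was at -0.03 and not called (limma adjusted p = 0.28), while HSP90AB1 was called higher at 0.11 (0.00949). The HSP90AA1 call was also lost without shTDP43 replicate 3 (limma adjusted p = 0.0588) and without both libraries low in SNORD3A (0.12). Averaged over the 6 libraries, HSP90AB1, HSP90AA1, HSPA8 and HSPD1 made up 51.7% of the summed FPKM of all members.

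Among the mitochondrial members, 3 of 9 rose (33.3%, beside 18.5% of all tested genes) and 1 fell (11.1%, beside 19.6%). This grouping was made after values were seen. The chaperonin genes HSPD1 and HSPE1 lie head to head on chromosome 2, with 104 bases between them (HSPD1 at 197486584 to 197500274, HSPE1 at 197500379 to 197503449). HSPD1 had 254, 251 and 252 FPKM in shNC and 265, 271 and 259.6 FPKM in shTDP43, a rise to 104.98% of control (limma adjusted p = 0.0422). HSPE1 had 128, 127 and 133 FPKM in shNC and 127, 131 and 120.3 FPKM in shTDP43, ranges that overlap (log2 difference -0.04, interval -0.12 to 0.04; limma adjusted p = 0.398). HSPA9, the HSP70 of the mitochondrial matrix, had 84.1, 80.8 and 78.7 FPKM in shNC and 86.6, 87.8 and 85.2 FPKM in shTDP43, 106.5% of control (limma adjusted p = 0.0374). The HSPD1 and HSPA9 calls were each kept in only 1 of the 6 tests that left out a library: HSPD1 without shTDP43 replicate 3 and HSPA9 without shNC replicate 1. RefSeq lists 22 pseudogenes of HSPD1 and 28 of HSPE1, and their share of these reads was not analysed here.

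DNAJC11 (chromosome 1, 6634170 to 6701816), a J-domain protein of the mitochondrial membranes that associates with the complex shaping the cristae, showed the largest rise of the tested members. It had 15.3, 15.3 and 15.5 FPKM in shNC and 22.8, 22.2 and 23.4 FPKM in shTDP43. The means were 15.4 ± 0.117 and 22.8 ± 0.618 FPKM (SD, n = 3), a 1.48-fold rise (limma adjusted p = 9.79e-06; log2 fold change 0.54, SE 0.03). The spread within each group was small beside the gap between them, and the call was kept under each of the 15 alternatives. DNAJC28, also mitochondrial, had 3.66, 3.98 and 4.01 FPKM in shNC and 3.20, 3.53 and 2.83 FPKM in shTDP43. It fell to 82.1% of control at the edge of the threshold (limma adjusted p = 0.0486), and the call was kept only without shTDP43 replicate 2 among the tests that left out a library. In all, 11 of the 15 alternatives lost the call, among them the filter at 5 FPKM, which left DNAJC28 untested. DNAJA3, DNAJC15, DNAJC19 and DNAJC30 were not called, at 106.3%, 111%, 101% and 98.1% of control.

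Small heat shock proteins were few in these cells, with 2 of 8 tested. HSPB1 (chr7:76302673-76304292), known as HSP27, binds unfolded proteins and actin and is mutated in inherited motor neuropathies. It had 74.0, 67.4 and 68.4 FPKM in shNC and 43.4, 50.7 and 51.2 FPKM in shTDP43. All 3 shTDP43 libraries were below the shNC libraries, and the mean went from 69.9 ± 3.58 down to 48.5 ± 4.35 FPKM (SD, n = 3), or 69.3% of control. HSPB1 was called at a limma adjusted p of 0.000476 (log2 fold change -0.52, SE 0.06), and the call was kept under each of the 15 alternatives. Of 12 tested mesenchymal-type markers, 8 fell, among them TAGLN to 29.6% and VIM to 65.8% of control, and 4 rose (TWIST1 to 144.7%, TNC to 184.2%, PDGFRB to 122.6% and FOSL2 to 116.5%). Their part in the HSPB1 result was not tested. HSPB11 (chromosome 1, 53911576 to 53946305), listed in RefSeq as IFT25, had 58.4, 57.4 and 56.9 FPKM in shNC and 65.3, 72.1 and 69.0 FPKM in shTDP43 and rose to 119.5% of control (limma adjusted p = 0.00107).

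HSPB8, which works with BAG3 to deliver misfolded proteins to autophagy in motor neurons, was below the level tested. It had 0.294, 0.296 and 0.449 FPKM in shNC and 0.0866, 0.104 and 0.0264 FPKM in shTDP43. The groups did not overlap, and with no filter on low values HSPB8 was called lower (log2 fold change -0.33; limma adjusted p = 0.00793). At such levels a value rests on few reads, and every shNC library was deeper than every shTDP43 library. BAG3 had 1.22, 0.853 and 1.52 against 1.15, 1.03 and 1.15 FPKM and was not called (limma adjusted p = 0.783). HSPB6, HSPB7 and HSPB9 stayed under 0.6 FPKM in every library, with overlapping groups, and HSPB2 was above 0 only in shTDP43 replicate 3, at 0.0827 FPKM.

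Of the class A J-domain proteins, which partner HSP70 in general folding, DNAJA1 rose and DNAJA2 fell. DNAJA1 (chr9:33025273-33039907) had 176, 175 and 171 FPKM in shNC and 195, 207 and 197 FPKM in shTDP43, 114.7% of control (log2 fold change 0.20, SE 0.03; limma adjusted p = 0.000956). DNAJA2 had 42.0, 43.0 and 40.3 FPKM in shNC and 38.1, 38.1 and 39.2 FPKM in shTDP43, 92.1% of control (limma adjusted p = 0.0194). The groups did not overlap in either gene. DNAJA1 kept its call under each of the 15 alternatives, and DNAJA2 was called in 2 of the 6 tests that left out a library, without shNC replicate 3 and without shTDP43 replicate 3. DNAJA4 had 0.195 to 0.329 and 0.249 to 0.823 FPKM and was not tested.

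None of the 8 tested class B J-domain genes rose, beside 18.5% of all tested genes, and 2 fell (25.0%, beside 19.6%). DNAJB2 (chromosome 2, 219279366 to 219286895), a neuronal J-domain protein that passes clients to the proteasome and is mutated in distal motor neuropathy, had 9.44, 9.14 and 8.91 FPKM in shNC and 7.12, 7.98 and 7.14 FPKM in shTDP43. It fell to 80.9% of control with no overlap (log2 fold change -0.27, SE 0.05; limma adjusted p = 0.00467). DNAJB5 had 10.9, 10.3 and 10.9 against 9.43, 8.96 and 9.31 FPKM, 86.2% of control (limma adjusted p = 0.00728). Both calls were kept without each library in turn and lost without both libraries low in SNORD3A (limma adjusted p = 0.0555 for DNAJB2 and 0.0575 for DNAJB5). DNAJB6, a suppressor of protein aggregation and the most abundant gene of the class, had 141, 144 and 139 FPKM in shNC and 140.1, 141 and 137 FPKM in shTDP43 (log2 difference -0.02, interval -0.07 to 0.03; limma adjusted p = 0.528). DNAJB1, the heat-inducible partner of HSP70, had 22.7, 23.3 and 22.4 against 22.6, 22.2 and 22.8 FPKM (log2 difference -0.02, interval -0.08 to 0.05; limma adjusted p = 0.712). The groups overlapped in both.

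The DNAJC class, whose members share little beyond the J domain and serve particular tasks, had 4 of 23 tested members higher and 1 lower. These were 17.4% and 4.35%, beside 18.5% and 19.6% of all tested genes. Besides DNAJC11 and DNAJC2, DNAJC12 and DNAJC7 rose. DNAJC12 (chr10:67796669-67838188), a co-chaperone of the hydroxylases that make tyrosine, dopamine and serotonin precursors, had 29.8, 30.6 and 28.8 FPKM in shNC and 39.3, 39.3 and 38.1 FPKM in shTDP43. The groups were well apart, at 131% of control (log2 fold change 0.38, SE 0.03; limma adjusted p = 5.08e-05). DNAJC7 (chromosome 17, 41976435 to 42017439), which binds both HSP70 and HSP90 and is a disease gene of amyotrophic lateral sclerosis, had 44.5, 41.3 and 42.7 FPKM in shNC and 46.2, 49.6 and 48.6 FPKM in shTDP43. It rose to 112% of control (limma adjusted p = 0.00979). Both calls were kept under each of the 15 alternatives.

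DNAJC5 and DNAJC6 were not called. DNAJC5, the cysteine string protein of synaptic vesicles, had 10.1, 9.70 and 10.4 FPKM in shNC and 10.0, 9.94 and 10.8 FPKM in shTDP43 (log2 difference 0.03, interval -0.08 to 0.13; limma adjusted p = 0.675). DNAJC6, the neuronal auxilin that uncoats clathrin vesicles, had 24.7, 23.5 and 24.1 against 23.0, 23.8 and 23.0 FPKM (log2 difference -0.05, interval -0.12 to 0.02; limma adjusted p = 0.265). The groups overlapped in both. Among the 18 tested DNAJC members that were not called, the groups were apart in DNAJC9 and DNAJC13 (shTDP43 above) and in DNAJC18 and DNAJC21 (shTDP43 below), at 105.7%, 107.7%, 90.4% and 91.3% of control. Over the whole class the groups were apart in 9 of 23 tested members (39.1%), beside 50.7% of all tested genes. Leaving out 1 library brought 4 DNAJC members past the threshold. The share of all genes newly called in these tests was not computed. DNAJC13 was called higher without shTDP43 replicate 1 (limma adjusted p = 0.0494) and DNAJC15 higher without shNC replicate 1 (limma adjusted p = 0.0301). Without shNC replicate 3, DNAJC18 and DNAJC4 were called lower (limma adjusted p = 0.0369 and 0.043).

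BAG1 (chr9:33252471-33264708), a nucleotide exchange factor that links HSP70 to the proteasome, was the only 1 of the 6 BAG genes called with the settings of the main test. That is 16.7% of the class, beside 38.1% of all tested genes. BAG1 had 7.38, 7.74 and 8.11 FPKM in shNC and 9.89, 9.34 and 10.3 FPKM in shTDP43, with no overlap, and rose to 127% of control (log2 fold change 0.31, SE 0.05; limma adjusted p = 0.00228). The call was kept under each of the 15 alternatives. BAG6, which guards newly made membrane proteins, had 57.6, 57.9 and 55.1 FPKM in shNC and 62.3, 58.3 and 59.6 FPKM in shTDP43. Its groups were apart, but it was not called (limma adjusted p = 0.0933) except with quantile normalization (0.0447). BAG5 likewise had groups apart at 107.5% of control without a call (limma adjusted p = 0.0897), and BAG2 and BAG4 were at 85.8% and 101.7% with overlapping groups. BAG2 was called lower without shTDP43 replicate 1 (limma adjusted p = 0.0464).

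**Figure D3:**
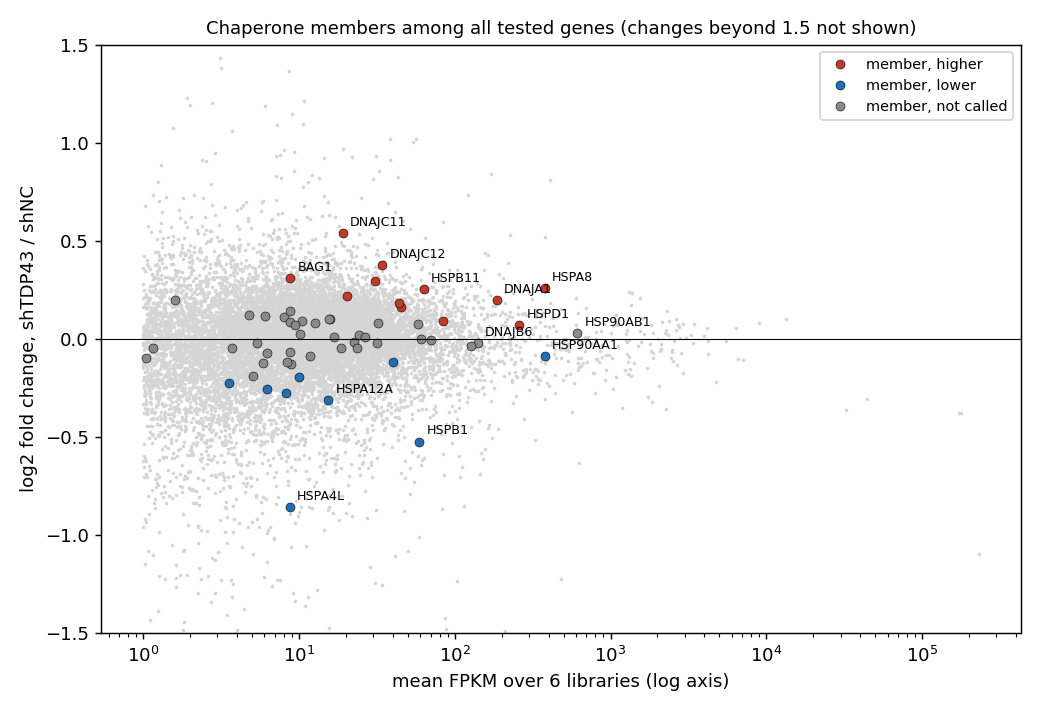
Log2 fold change (y axis, shTDP43 against shNC) over the mean FPKM of the 6 libraries (x axis, log scale), with tested genes in light grey (changes beyond 1.5 are not drawn) and the 58 tested members coloured by call. Members span from about the filter at 1 FPKM to HSP90AB1 at 613 FPKM, and HSPA8 at 378 FPKM lies at 0.26 while HSP90AA1 at 379 FPKM lies at -0.09.

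The summed FPKM of all 72 members was 3128, 3093 and 3062 in shNC and 3205, 3248 and 3171 in shTDP43, 103.7% of control. HSP70, DNAJA, DNAJC and BAG sums were above control in each shTDP43 library, at 111%, 110.2%, 107.5% and 105.4% of control. DNAJB and small heat shock protein sums were below it in each, at 97.4% and 91.8%. The sum of HSP90 with HSPD1 and HSPE1 was 1373 to 1389 FPKM in shNC and 1351 to 1400 FPKM in shTDP43, ranges that overlap. Each sum gives most weight to its abundant genes, and HSP70 without HSPA8 was at 101.3% of control. The most abundant gene did not set the change in every class. DNAJC8, the most abundant DNAJC gene, was at 99.95% of control. In the small heat shock protein sum, HSPB1 fell to 69.3% of control and HSPB11 rose to 119.5%.

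**Figure D4:**
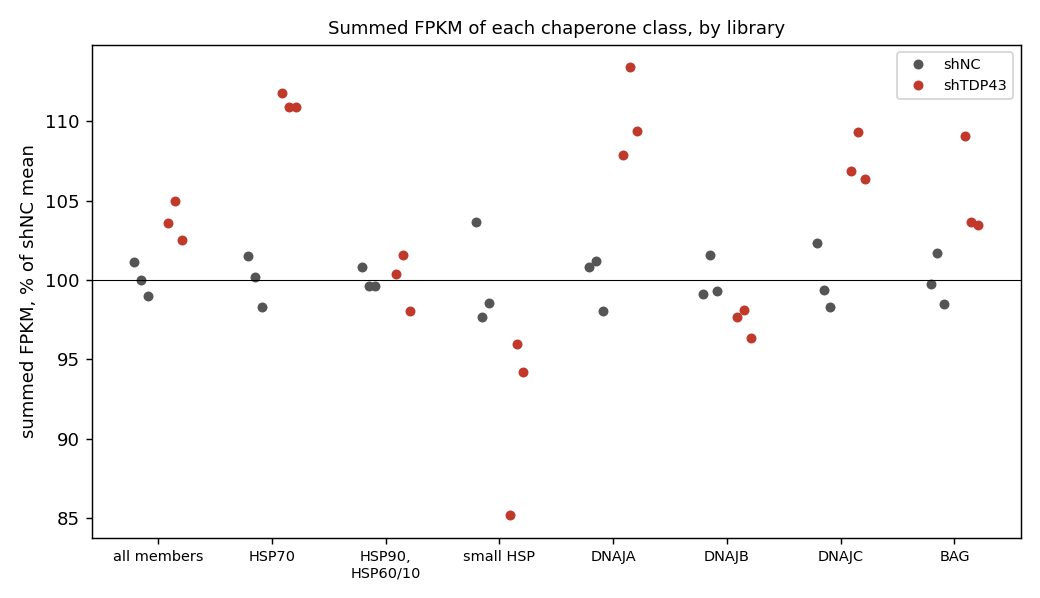
Summed FPKM of each class in each library as a percentage of the shNC mean of that class (y axis, not starting at 0; points are libraries). HSP70 sums of 709 to 715 FPKM lie above 629 to 649 FPKM in shNC, and HSP90 with HSPD1 and HSPE1 (HSP60/10) overlaps.

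Genes that act with these chaperones were taken from lists of their own. Of 10 heat shock factor genes and relatives 5 were tested, 0 rose and 2 fell (40.0%). Of all tested genes, 18.5% rose and 19.6% fell. HSF1, the main factor of the heat shock response, had 16.9, 17.6 and 16.7 FPKM in shNC and 18.3, 16.2 and 17.2 FPKM in shTDP43 (log2 difference 0.01, interval -0.09 to 0.12; limma adjusted p = 0.862). HSF2 and HSF4 were not called either, at 95.8% and 112% of control. The HSF1-binding protein gene HSBP1 fell to 90.9% (limma adjusted p = 0.0105) and its relative HSBP1L1 to 62.6% of control (limma adjusted p = 0.000404). Of 9 other heat-inducible genes 6 were tested, 0 rose and 3 fell. IER5, which activates HSF1, had 20.2, 19.9 and 18.8 against 9.97, 9.64 and 8.96 FPKM, 48.5% of control (limma adjusted p = 3.10e-06). The collagen chaperone gene SERPINH1 fell to 87.0% (limma adjusted p = 0.0176).

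Co-chaperones of HSP70 and HSP90 outside the symbols chosen had 6 of 33 tested genes higher and 4 lower (median log2 fold change 0.03). These were 18.2% and 12.1%, beside 18.5% and 19.6% of all tested genes. CHORDC1, an HSP90 co-chaperone, had 15.8, 15.7 and 16.6 FPKM in shNC and 21.3, 21.8 and 20.7 FPKM in shTDP43 and rose to 133% of control (limma adjusted p = 0.000117). AHSA2, related to the activator of the HSP90 ATPase, fell to 81.02% (limma adjusted p = 0.00338). The mitochondrial list had 1 of 17 higher (5.88%) and 4 lower (23.5%), at a median of 0.00. The member with the largest fall, HTRA1, to 18.1% of control (limma adjusted p = 5.29e-05), encodes a secreted protease and not a mitochondrial one. PAM16, a regulator of the import motor that HSPA9 drives, fell to 80.8% (limma adjusted p = 0.0121).

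Other folding machines are given for comparison, without a test of the difference between lists. The cytosolic chaperonin TRiC and prefoldin had 0 of 20 tested subunits and relatives higher and 5 lower (25.0%), at a median log2 fold change of -0.02. Of all tested genes, 18.5% were higher and 19.6% lower. CCT4 fell to 86.9% of control (limma adjusted p = 0.000781) and the prefoldin-like UXT to 88.6% (limma adjusted p = 0.00923). Chaperones of the endoplasmic reticulum had 2 of 14 higher (14.3%) and 1 lower (7.14%), at a median of 0.05. HSPA5, their HSP70, had 60.4, 58.9 and 59.2 FPKM in shNC and 65.6, 65.6 and 67.1 FPKM in shTDP43, a rise to 111% (limma adjusted p = 0.00153). CALR rose to 109% of control (limma adjusted p = 0.0021), and the other 4 genes set aside by the rule (DNAJB9, DNAJB11, DNAJC3 and DNAJC10) were at 104.6% to 106.8% and not called.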

How the data were processed

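Total RNA of SH-SY5Y cells was poly(A)-selected for directional libraries, per the labels' protocols. The authors deposited 1 table of FPKM values per gene symbol and library. Per the submitters' processing notes, the tools were TopHat2 2.1.0, SAMtools and Cuffdiff 2.2.1, with hg38. Not given in the sources used here were annotation, strand use, the handling of multiply matching reads and the method of scaling to library size. FPKM are not counts, so count models were not used. Values were analysed as log2(FPKM + 1) in R 4.3.3 with limma 3.58.1 (group as the only term, variance trend, two-sided, Benjamini-Hochberg over 13263 genes averaging 1 FPKM or more). Percentages of control are ratios of mean FPKM, since the log2(FPKM + 1) scale understates changes of low genes. In simulated data for shTDP43 against shNC (13263 genes), 24 of 50 genes were recovered at a 1.2-fold change, 47 of 50 at 1.5-fold, and 7 unaltered genes were called. Only 50 genes were altered at each of 1.2-, 1.5-, 2- and 3-fold, while 38.1% of tested genes were called in the real data. The adjusted p depends on the share of altered genes, so these numbers do not carry over to the real test. No pair of libraries was identical (at most 0.0905% of tested genes had equal values). Members and lists were chosen with earlier results of these data known. Named genes were every member called, a core of stress chaperones and neuronal J-domain proteins whatever they did, and the 2 largest called changes of each other list. Genes outside this rule, such as other uncalled members and HSF1, were added after values were seen. Locations came from RefSeq, whose GRCh38 is the assembly that hg38 names. Single genes of the lists beside the members may not be reported here by name.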

Additional observations from a re-analysis of the deposited data

How the results depend on the processing

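The alternatives were pseudocounts of 0.1 and 0.01, a filter at 5 FPKM or none, quantile normalization, median centring, no variance trend, the replicate number as a block, and leaving out each library; leaving out both libraries low in SNORD3A was chosen after seeing the data. Of the 21 members called, 12 kept the call under all 15 alternatives (9 higher, 3 lower) and 15 without each library in turn. The share of all called genes that kept their call was not computed, so these counts have no background beside them. Without both libraries low in SNORD3A, which leaves fewer libraries, 3323 genes in place of 5054 were called. In that test 4 members in place of 9 were lower (7.02%, beside 13.3% of all genes). The members' median log2 fold change was then 0.0411 in place of 0.00992. Leaving out single libraries gave medians of 0.00213 to 0.0315 (0.0315 without shTDP43 replicate 3; the cause was not tested), and no filter on low values gave -0.00121. In the tests that left out 1 library, 10 to 12 members were higher (17.2% to 20.7%, beside 14.6% to 15.8% of all genes). In the same tests 6 to 10 members were lower (10.3% to 17.2%, beside 15.7% to 17.3%), and 4009 to 4385 genes were called. With no variance trend HSP90AA1, DNAJA2, HSPA9 and HSPD1 were not called; leaving out both libraries low in SNORD3A also ended the DNAJA2, DNAJC28 and HSPD1 calls. No called result changed direction. Same-numbered libraries of the groups correlated in their deviations at -0.07, 0.06 and 0.11, so the numbers were not taken as pairs. With the replicate block 11 members were higher (19.0%, beside 16.2% of all genes) and 8 were lower (13.8%, beside 17.7%). In that test 4502 genes were called, and DNAJC28 (limma adjusted p = 0.0693) and HSPD1 (limma adjusted p = 0.0747) were not called. The absence of read totals limits statements on members below 1 FPKM.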
